A study of Mus musculus with 10 samples.

Results

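The genes described here are 8 genes tied to glucocorticoid hormone: Nr3c1, Hsd11b1, Fkbp5, Tsc22d3, Zbtb16, Sgk1, Mt1 and Mt2. They were chosen by symbol, through the Ensembl gene identifiers of the deposited count table, and are 8 of its 47333 genes. The table holds RNA-seq of whole lung (right middle lobe) from 10 mice of the C57BL/6J strain, 12 weeks of age and given no treatment. Bpifb1 was lost in 5 of them (KO, 1 male and 4 females) and the other 5 were wild type (WT, 2 males and 3 females). The series asked which lung genes differ when Bpifb1, a secreted protein of the airway lining, is lost. The labels do not say how the KO allele was made, name no hormone treatment or time of day, and state that cages held both genotypes.

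Glucocorticoids such as corticosterone enter cells and bind the glucocorticoid receptor, which chaperones of the HSP90 family hold ready in the cytoplasm. The bound receptor moves to the nucleus and acts at glucocorticoid response elements, and the genes it induces damp inflammation, shift metabolism and limit the hormone's own action. In the lung the hormone is known for maturing the alveolar epithelium and for the anti-inflammatory effect of steroid drugs, and in mice its level in blood follows the time of day and rises with handling stress.

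Bpifb1 itself (ENSMUSG00000027485) measured 28.1, 41.2, 71.1, 78.7 and 79.6 counts per 1000000 counts of the library (CPM) in the 5 WT mice and 0.217 to 1.26 CPM in the 5 KO mice, as their labels say. Library totals ran from 21357424 to 28321294 counts, so that 3 counts, taken here as the smallest signal read as detected, equalled 0.106 to 0.14 CPM. Lung markers were present throughout: the summed level of 5 alveolar type 2 markers was 20048 to 25063 CPM. In KO replicate 5, labelled female, Xist measured 1.78 CPM, against 274 to 407 CPM in the other 6 females and 1.29 to 1.73 CPM in the 3 males. Results on sex are therefore given with and without that mouse. Every fit that held it kept its female label, also where sex was a covariate between KO and WT and in females alone. No fit took it as a male, so the KO estimates adjusted for sex rest on that label too. WT replicates 1 and 2 stood apart in the balance of long and short transcripts described with Nr3c1, and WT replicate 5 in early response genes described with Tsc22d3.

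All 8 genes were expressed in every mouse and passed the filter on low counts, from 117 counts (Mt2, lowest mouse) to 9584 (Tsc22d3, highest mouse). Levels of different genes are compared only after division by the length of the principal transcript. On that scale (CPM per kilobase, mean ± SD, n = 10) Tsc22d3 had 160 ± 44.1 and Hsd11b1 128 ± 13.1. Next came Mt1 with 49.7 ± 9.35 and Sgk1 with 42.0 ± 4.2, then Nr3c1 with 27.8 ± 2.08, Zbtb16 with 19.0 ± 9.84, Mt2 with 16.2 ± 5.35 and Fkbp5 with 13.4 ± 2.72. The SDs of Tsc22d3 and Hsd11b1, of Mt1 and Sgk1, of Nr3c1 and Zbtb16, of Zbtb16 and Mt2, and of Mt2 and Fkbp5 overlap. Such overlap cannot decide the order of genes measured in the same mice, and the order within mice was not tested. The spread between mice separated the genes: the coefficient of variation of CPM over the 10 mice was 7.5% for Nr3c1, 10% for Sgk1, 10.2% for Hsd11b1, 18.8% for Mt1, 20.4% for Fkbp5, 27.5% for Tsc22d3, 33.0% for Mt2 and 51.8% for Zbtb16. The receptor and the activating enzyme were thus among the steadiest of the 8 and Zbtb16 the most variable, with its highest mouse 6.77 times its lowest. The plot of CPM by mouse shows all 80 values.

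**Figure D1:**
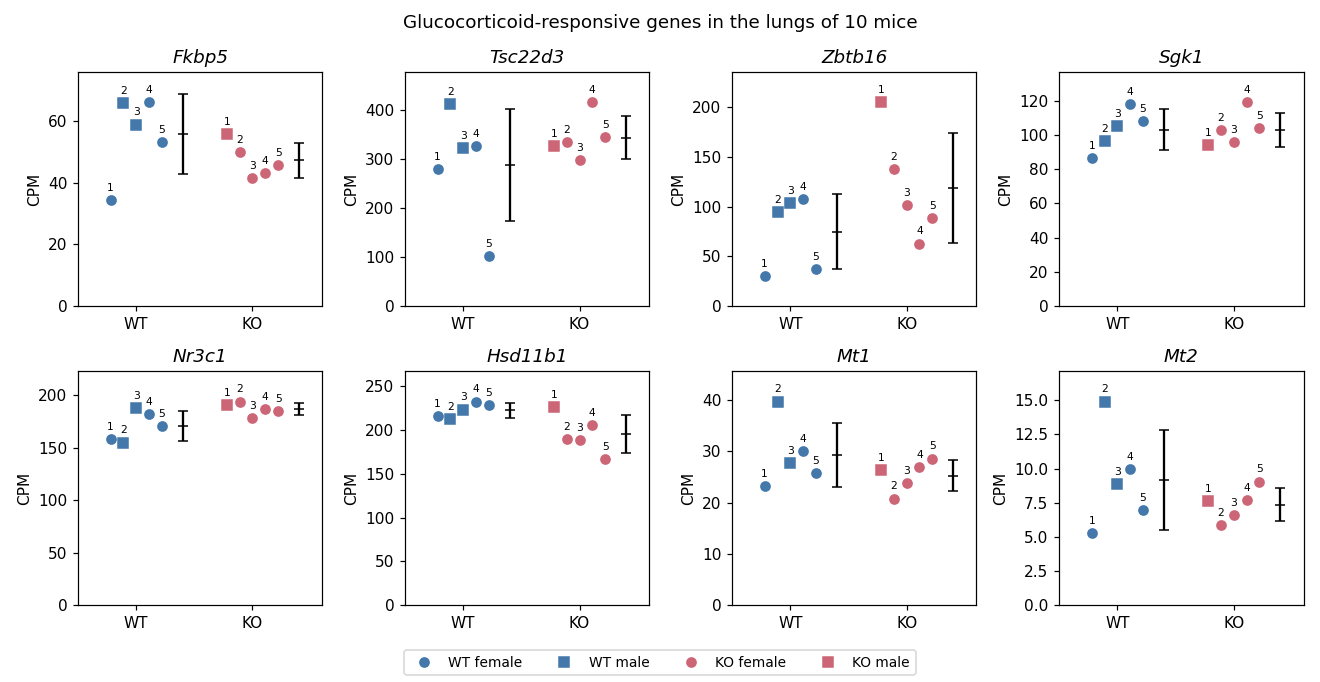
Level of each of the 8 genes (CPM, linear axes from 0) in the 5 WT and 5 KO mice; digits are replicate numbers, squares males, circles females, and black bars the group mean ± SD. WT replicate 5 lies at 102 CPM of Tsc22d3, below the other 9 mice, and WT replicate 2 at 14.9 CPM of Mt2, above them; the KO and WT ranges of every gene overlap.

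None of the 8 genes passed the test between KO and WT, and the 2 nearest to it were Nr3c1 and Hsd11b1. By edgeR's quasi-likelihood test with sex as a covariate, 0 of 8 passed a Benjamini-Hochberg adjusted p of 0.05, where 4 of 18024 genes tested did (0.0222%). At an unadjusted edgeR p under 0.05 stood 2 of the 8, 1 higher and 1 lower, against 17% of all genes. The DESeq2 Wald test called 0 of the 8 and 346 of all genes (1.92%), and limma-voom 0 of the 8. In none of the 8 did the CPM ranges of the genotypes stand apart, as they did in 1.88% of genes. The median log2 fold change of the 8 was -0.08, and that of all genes -0.00. In a piece of whole lung, fewer cells of a type and less RNA per cell cannot be told apart.

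Nr3c1 (ENSMUSG00000024431; GRCm38 chromosome 18, 39410545 to 39519421, minus strand) encodes the glucocorticoid receptor. It measured 191, 194, 178, 187 and 185 CPM in KO replicates 1 to 5 and 158, 155, 188, 182 and 171 CPM in WT replicates 1 to 5. The KO mice lay close together, and the WT mice spread below and into their range. The log2 fold change (KO minus WT) was 0.13 (SE 0.06, unadjusted edgeR p 0.0469, adjusted p 0.2868). The 3 genes whose log2 CPM followed Nr3c1 most closely over the 10 mice were Ccdc88a (r = 0.983), Tmod2 (r = 0.977) and Ccser2 (r = 0.972), whose merged exons span 10891, 11683 and 8715 bases.

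Nr3c1 also followed the balance of long and short transcripts in each library. That balance is the median log2 deviation from each gene's mean of the longest expressed genes (merged exons of 6379 bases or more) minus that of the shortest (2359 bases or less). It was 0.12, 0.11, -0.02, 0.01 and 0.15 in KO replicates 1 to 5 and -0.24, -0.15, 0.07, -0.01 and -0.08 in WT replicates 1 to 5. WT replicates 1 and 2, the lowest in Nr3c1, were the lowest in it. Over the 10 mice Nr3c1 correlated with it at Pearson r = 0.92 (permutation p 0.00035, adjusted over the 8 genes 0.0028; Spearman rho = 0.85, permutation p 0.0027), and at r = 0.83 without WT replicates 1 and 2 (exact permutation p 0.0080). Nr3c1, with merged exons of 7684 bases, is itself one of the long genes that define the balance. The permutation p therefore cannot set it apart from long genes as a class. Fkbp5, with merged exons of 9468 bases, is another of the long genes and had r = 0.22 with the balance (rho = 0.12, permutation p 0.5426, adjusted 0.6649). How many of the long genes follow the balance as closely as Nr3c1 was not tested. With the balance as a covariate, chosen after seeing the data, the KO log2 fold change of Nr3c1 was -0.01. Among the other 7 genes the unadjusted permutation p was under 0.05 for Zbtb16 alone (r = 0.72, rho = 0.58, permutation p 0.0185, adjusted 0.0742; r = 0.69 without WT replicates 1 and 2).

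Hsd11b1 (ENSMUSG00000016194; chromosome 1, 193221634 to 193264075, minus strand) encodes the enzyme that regenerates active corticosterone from its inert form inside cells. It measured 226, 189, 188, 205 and 167 CPM in KO replicates 1 to 5 and 216, 212, 223, 232 and 228 CPM in WT replicates 1 to 5. Of the KO mice 4 lay below all 5 WT mice, and KO replicate 1, the male, lay among them. The log2 fold change was -0.18 (SE 0.07, unadjusted edgeR p 0.0235, adjusted p 0.2313), and it ran from -0.27 to -0.13 as each mouse was left out. Als2cr12 (r = 0.950), Cript (r = 0.931) and Gm4204 (r = 0.922) followed it most closely.

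Fkbp5 (ENSMUSG00000024222; chromosome 17, 28399094 to 28517527, minus strand) encodes a co-chaperone that lowers the receptor's affinity for hormone and is itself induced by the receptor. It measured 55.7, 50.0, 41.6, 43.3 and 45.8 CPM in KO replicates 1 to 5 and 34.5, 66.0, 58.9, 66.1 and 53.3 CPM in WT replicates 1 to 5. WT replicate 1 was the lowest of all 10 mice, while the other 4 WT mice lay above 4 of the 5 KO mice. The log2 fold change was -0.18 (SE 0.15, edgeR adjusted p 0.5745), and it ran from -0.32 (without WT replicate 1) to -0.03 (without WT replicate 4) as each mouse was left out. Its nearest genes over the 10 mice were Gm5454 (r = 0.926), Tspan2 (r = 0.915) and Lamc3 (r = 0.912).

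Tsc22d3 (ENSMUSG00000031431; chromosome X, 140539528 to 140600659, minus strand) encodes GILZ, a leucine zipper protein that mediates part of the anti-inflammatory effect. It measured 326, 335, 298, 416 and 346 CPM in KO replicates 1 to 5 and 279, 412, 322, 326 and 102 CPM in WT replicates 1 to 5. WT replicate 5 had less than any other mouse, which alone set the 4.08 ratio of highest to lowest, and the other 9 mice ran from 279 to 416 CPM. The log2 fold change was 0.37 (SE 0.33, edgeR adjusted p 0.6195), and 0.08 without WT replicate 5. Of its 50-base sequence words 0.456% are shared with Gm8812, a gene of chromosome 1 at 0.552 to 1.95 CPM.

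Zbtb16 (ENSMUSG00000066687; chromosome 9, 48654297 to 48836222, minus strand) encodes PLZF, a zinc finger repressor that glucocorticoid induces strongly in many tissues. It measured 205, 138, 102, 62.9 and 88.3 CPM in KO replicates 1 to 5 and 30.3, 94.3, 104, 108 and 37.6 CPM in WT replicates 1 to 5. KO replicates 1 and 2 lay above every WT mouse, and WT replicates 1 and 5 below every KO mouse. The log2 fold change was 0.83 (SE 0.39, unadjusted edgeR p 0.0711, adjusted p 0.3355), the largest in size among the 8. It was 1.36 without WT replicate 4 and 0.29 with the length balance as a covariate, and the adjusted p over all alternatives ran from 0.0960 to 0.9939. Ggta1 (r = 0.971, and 0.911 without WT replicates 1 and 5), Jag1 (r = 0.947) and Mdc1 (r = 0.945) followed it.

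Sgk1 (ENSMUSG00000019970; chromosome 10, 21882184 to 21999903, plus strand) encodes a kinase that raises epithelial sodium transport and answers both glucocorticoid and mineralocorticoid. It measured 94.3, 103, 95.6, 119 and 104 CPM in KO replicates 1 to 5 and 86.7, 96.4, 105, 118 and 108 CPM in WT replicates 1 to 5. The genotypes covered nearly the same range. The log2 fold change was -0.01 (SE 0.08, edgeR adjusted p 0.9535), and its sign turned without KO replicate 1 (0.02), KO replicate 3 (0.01), WT replicate 3 (0.00) or WT replicate 4 (0.05). Its nearest genes were Capn5 (r = 0.924), Pcdhb20 (r = 0.887) and Pknox2 (r = 0.883).

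Mt1 and Mt2 encode metallothioneins, small cysteine-rich proteins that bind zinc and copper, and both are induced by metals through the factor MTF1 and by glucocorticoid. They are neighbours on the plus strand of chromosome 8, Mt2 (ENSMUSG00000031762) at 94172664 to 94173568 and Mt1 (ENSMUSG00000031765) at 94179082 to 94180327. Mt1 measured 26.4, 20.8, 23.9, 26.9 and 28.6 CPM in KO replicates 1 to 5 and 23.3, 39.7, 27.8, 30.1 and 25.7 CPM in WT replicates 1 to 5. Mt2 measured 7.64, 5.84, 6.6, 7.68 and 9.05 CPM in the KO mice and 5.31, 14.9, 8.84, 9.95 and 6.94 CPM in the WT mice, in the same order. WT replicate 2, a male, was the highest mouse for both genes. The log2 fold changes were -0.15 (SE 0.12, edgeR adjusted p 0.5624) for Mt1 and -0.19 (SE 0.22, adjusted p 0.7031) for Mt2. As each mouse was left out that of Mt1 ran from -0.22 to -0.07, and that of Mt2 from -0.35 (without WT replicate 1) to -0.02 (without KO replicate 1).

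**Figure D2:**
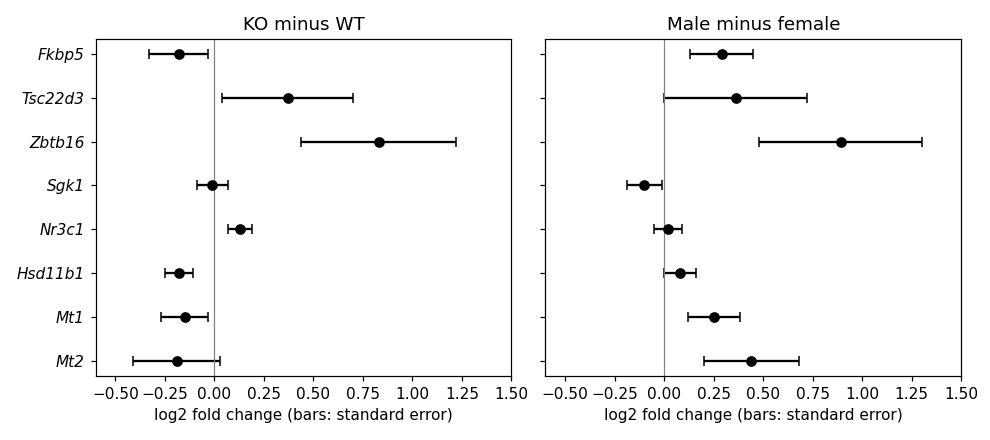
Log2 fold change of each of the 8 genes from the edgeR fit, KO minus WT at left and male minus female at right; points are estimates and bars their standard errors. Zbtb16 has the largest estimates, 0.83 and 0.89, with standard errors of 0.39 and 0.41, and no gene passed the test in either comparison.

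Between the sexes 0 of the 8 passed, where 105 of all genes did (0.583%), and 0 of the 8 had CPM ranges that stood apart (4.81% of all genes). At an unadjusted edgeR p under 0.05 were 0 of the 8 (15.1% of all genes), and neither the DESeq2 Wald test, which called 2.42% of all genes, nor limma-voom called any. The estimate (male minus female) was above 0 for 7 of the 8. It was largest for Zbtb16, at 205, 94.3 and 104 CPM in the males and 30.3 to 138 CPM (median 88.3) in the 7 females, or 0.89 on the log2 scale (SE 0.41; adjusted p by edgeR 0.3709). Mt2 followed with 7.64, 14.9 and 8.84 CPM in the males and 5.31 to 9.95 CPM (median 6.94) in the females, 0.44 (SE 0.24, edgeR adjusted p 0.4232). Fkbp5 had 55.7, 66.0 and 58.9 CPM in the males and 34.5 to 66.1 CPM (median 45.8) in the females, 0.29 (SE 0.16, edgeR adjusted p 0.4397). In each case the male values lay inside or only partly above the female range. Tsc22d3 gave 0.36 (SE 0.36), Mt1 0.25 (SE 0.13), Hsd11b1 0.08 (SE 0.08), Nr3c1 0.02 (SE 0.07) and Sgk1 -0.10 (SE 0.09). The sign for Hsd11b1 turned without KO replicate 1 (-0.05), and that for Nr3c1 without WT replicate 1 (-0.01) or WT replicate 3 (-0.04). Without WT replicate 2 the values were 0.16 for Mt2 and 0.08 for Mt1, and without WT replicate 5 that of Tsc22d3 was 0.11. Without KO replicate 5 they were 0.86 for Zbtb16, 0.50 for Mt2, 0.37 for Tsc22d3, 0.29 for Fkbp5 and 0.28 for Mt1, then 0.05 for Hsd11b1, 0.02 for Nr3c1 and -0.10 for Sgk1. No gene of the 8 passed in any of these fits. A list of 4 T cell markers was lower in the males (21.1 to 23.3 CPM summed, against 25.7 to 36.2 in the females), and its part in these values was not tested.

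Covariation over the 10 mice was clear for the metallothioneins only. Of the 28 pairs of the 8 genes, 1 passed Benjamini-Hochberg adjustment over the pairs, and that pair was Mt1 with Mt2. The Pearson r of log2 CPM was above 0 in 22 pairs and below 0 in 6, with a median of 0.19 and a range of -0.42 (Nr3c1 with Mt1) to 0.97. Unadjusted, 3 pairs had a permutation p under 0.05.

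**Figure D3:**
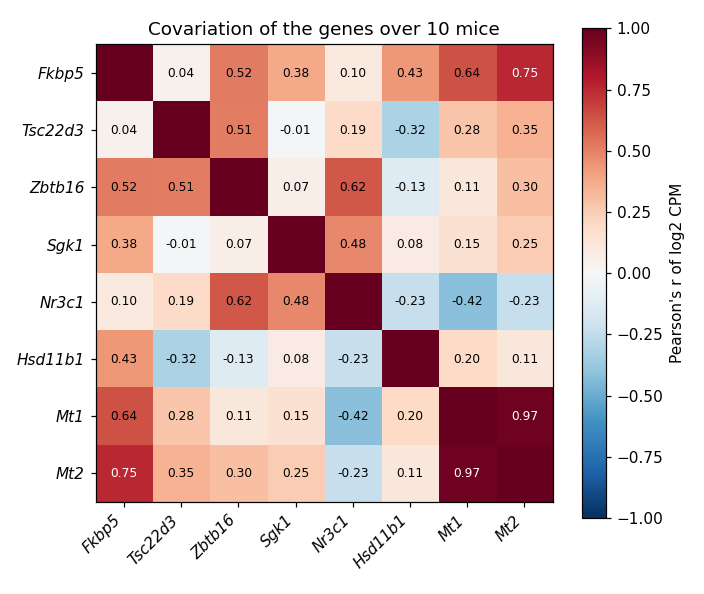
Pearson's r of log2 CPM over the 10 mice for each pair of the 8 genes, from blue (-1) through white (0) to red (1). Mt1 with Mt2 stands at 0.97 and Fkbp5 with Mt2 at 0.75, while Nr3c1 with Mt1 is lowest at -0.42.

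Mt1 with Mt2 had r = 0.97 (permutation p 4e-05, adjusted 0.0011; rho = 0.99, permutation p 2e-05). It was r = 0.97 without KO replicate 2 and WT replicate 2, the mice farthest from the median of Mt1 (exact permutation p 2.5e-05), r = 0.96 after genotype and sex were removed, and 0.92 to 0.98 as each mouse was left out. Among 16280 other genes with a mean of at least 1 CPM, Mt2 ranked 1 for Mt1 and Mt1 ranked 1 for Mt2. The transcripts of Mt1 and Mt2 share no 50-base word, so a read without mismatches that lies within 1 of them cannot come from the other. Of the words of Mt2, however, 45.8% (254 of 554) are also in Gm45774, a gene of the opposite strand. No single row of counts was matched to the symbol Gm45774, so its level is not given. Whether the counting used the strand is not given in the sources used here, and Mt2 levels are uncertain to that extent. The next genes were the same for both: Tspan11 (r = 0.965 with Mt1, 0.948 with Mt2), Ddx51 (0.964 and 0.955) and Fam129b (0.943 and 0.902).

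Fkbp5 was the other gene to lean toward the metallothioneins. With Mt2 it had r = 0.75 (rho = 0.72, permutation p 0.0113, adjusted 0.1582) and with Mt1 r = 0.64 (rho = 0.67, permutation p 0.0438, adjusted 0.3826). Without WT replicates 1 and 4, the lowest and highest in Fkbp5, these were r = 0.64 (exact permutation p 0.0787) and r = 0.60 (exact permutation p 0.1061). After genotype and sex were removed they were 0.61 (permutation p 0.0491, adjusted 0.2749) and 0.42 (permutation p 0.2403, adjusted 0.5860). Mt2 ranked 109 among the genes nearest to Fkbp5. Neither relation passed adjustment, and both were smaller without the most extreme mice.

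**Figure D4:**
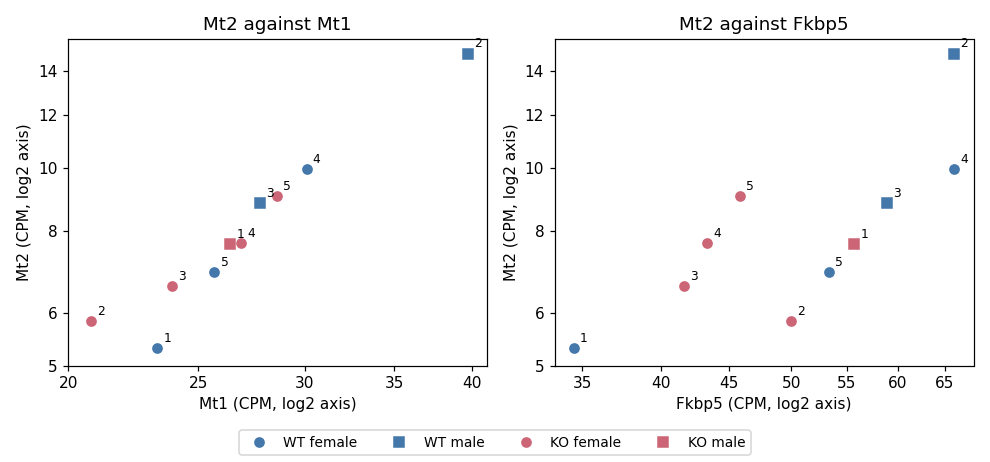
Mt2 against Mt1 (left) and against Fkbp5 (right) in the 10 mice, as CPM on log2 axes; digits are replicate numbers, squares males and circles females. Mt2 follows Mt1 closely (r = 0.97) from 5.31 to 14.9 CPM, and Fkbp5 more loosely (r = 0.75).

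Several other pairs moved as mice were left out. Zbtb16 with Nr3c1 had r = 0.62 (rho = 0.67, permutation p 0.0547, adjusted 0.3826), r = 0.30 without WT replicates 1 and 5, and r = 0.85 without WT replicate 2 (exact permutation p 0.00317, adjusted 0.0444, the 1 further pair to pass when a mouse was left out). Tsc22d3 with Mt2 had r = 0.35 (rho = 0.58, permutation p 0.2665, adjusted 0.6891) over all mice, r = 0.65 without WT replicate 5, and r = 0.85 without KO replicate 4 and WT replicate 5 (exact permutation p 0.0106). Tsc22d3 with Fkbp5 had r = 0.04 (rho = 0.20, permutation p 0.9188, adjusted 0.9529), and between -0.10 and 0.41 as each mouse was left out. Fkbp5 with Zbtb16 had r = 0.52 (rho = 0.53, permutation p 0.1269, adjusted 0.6812), 0.16 without WT replicates 1 and 4, and 0.77 after genotype and sex were removed (permutation p 0.0160, adjusted 0.2246). Nr3c1 with Mt1, the lowest pair, had r = -0.42 (rho = -0.22, permutation p 0.2280, adjusted 0.6891), and r = 0.15 without WT replicate 2. WT replicate 1 was the lowest mouse for 4 of the 8 genes (Fkbp5, Zbtb16, Sgk1 and Mt2), as it was for 15.3% of all genes tested.

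Mt2 and Mt1 moved together, and Sgk1 (r = 0.25 with Mt2, 0.15 with Mt1) holds the letters of the full response element. The bases before the start sites of these genes are therefore shown. Each is the 250 bases before a RefSeq start on GRCm38.p6, plus strand, 5′ to 3′: Mt2 at chr8:94172368-94172617, Mt1 at chr8:94178839-94179088 and Sgk1 at chr10:21993640-21993889. Capitals mark matches, on either strand, to the metal response element core (TGCACNC or TGCGCNC) in Mt2 and Mt1 and to glucocorticoid response element letters in Mt1 and Sgk1.
Mt2: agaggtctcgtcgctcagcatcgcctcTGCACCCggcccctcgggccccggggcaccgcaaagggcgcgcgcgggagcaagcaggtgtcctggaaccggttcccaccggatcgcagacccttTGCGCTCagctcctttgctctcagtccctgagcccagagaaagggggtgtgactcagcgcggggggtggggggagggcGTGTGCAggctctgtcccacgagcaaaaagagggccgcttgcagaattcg
Mt1: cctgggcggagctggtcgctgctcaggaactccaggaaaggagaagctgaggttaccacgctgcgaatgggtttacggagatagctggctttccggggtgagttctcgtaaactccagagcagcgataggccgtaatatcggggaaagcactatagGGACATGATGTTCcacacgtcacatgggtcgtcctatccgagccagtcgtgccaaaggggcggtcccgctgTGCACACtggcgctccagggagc
Sgk1: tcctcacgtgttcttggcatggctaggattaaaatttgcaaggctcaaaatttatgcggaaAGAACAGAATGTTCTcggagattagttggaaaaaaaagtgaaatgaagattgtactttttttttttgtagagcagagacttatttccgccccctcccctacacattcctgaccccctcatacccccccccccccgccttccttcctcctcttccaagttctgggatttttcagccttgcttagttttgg

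The Mt2 window holds 3 metal response cores, as 1.26% of 32851 RefSeq windows of the same length do with 3 or more, and the Mt1 window holds 1, where 21.4% hold at least 1. The Mt1 window also holds 1 match to the looser glucocorticoid letters, GNACA and its reverse complement TGTNC with 3 bases between them, found in 0.387% of windows. The Sgk1 window holds the full palindrome, AGAACA and TGTTCT with 3 bases between them, which contains those looser letters and is found in 3 windows (0.00913%). Sgk1 has 6 such windows and this is the 1 with a match. Windows were matched for 6 of the 8 genes, and those of Mt2, Fkbp5, Tsc22d3 and Hsd11b1 hold no glucocorticoid match. A match describes letters and not a site in use.

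WT replicate 5, the mouse low in Tsc22d3, was also low in other glucocorticoid targets. On a list of 34 further targets it was the lowest mouse for 16 genes (47.1%), where it was lowest for 9.87% of all genes tested, and its median deviation from each gene's median was -0.33 on the log2 scale. Per1, a clock gene with a response element, measured 49.9 CPM in it and 121 to 203 CPM in the other 9 mice. Dusp1, a phosphatase that turns off MAP kinases, measured 80.6 CPM against 156 to 345 CPM. Cebpd, a transcription factor, measured 56.6 CPM against 110 to 172 CPM, and Errfi1, an inhibitor of the EGF receptor, 95.2 CPM against 156 to 309 CPM. These genes were singled out after their values were seen. The same mouse was lowest for 7 of 8 immediate early genes (87.5%), which handling and tissue stress raise, and for 5 of 14 clock genes (35.7%). Per1 is on both the target and the clock list. Arntl, another clock gene, was highest in this mouse (16 CPM, others 6.58 to 15.6). WT replicate 5 had the highest summed level of smooth muscle markers (958 CPM, others 653 to 852) and of adipocyte markers (239 CPM, others 36.5 to 214). In every other list of cell type markers it was neither the highest nor the lowest mouse. Among the 8 genes it was lowest for Tsc22d3 only, and the part of tissue makeup, handling or the clock in its value was not tested.

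**Figure D5:**
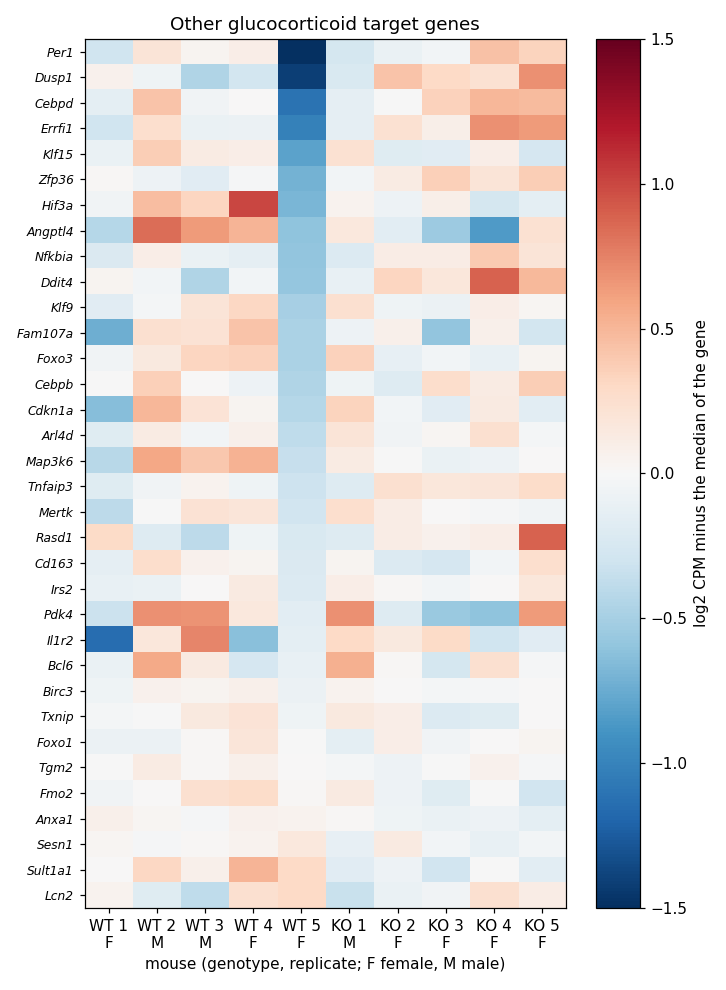
Log2 CPM of 34 further glucocorticoid targets in each mouse, minus the median of the gene over the 10 mice (blue below, red above), ordered by the value in WT replicate 5. Per1, Dusp1, Cebpd and Errfi1 are the bluest in WT replicate 5, which is the lowest mouse for 16 of the 34.

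The nearest genes of Tsc22d3 over the 10 mice were Per1 (r = 0.963), Gm15270 (r = 0.949) and Gm8812 (r = 0.942), and 6 of the 34 targets were among its nearest 100 of 16280 genes: Per1, Cebpd, Errfi1, Klf15, Arl4d and Nfkbia. Without WT replicate 5 alone, an alternative chosen after seeing the data, their r lay between 0.501 (Klf15) and 0.774 (Per1), and that of Gm8812 was 0.458. Without KO replicate 4 alone it stayed at 0.835 or more for these genes. Gm8812 shares 20 of the 50-base words of Tsc22d3 and measured only 0.552 to 1.95 CPM. Whether reads of Tsc22d3 were counted for Gm8812 was not tested. Fkbp5 had 3 of the 34 among its nearest 100, of which Map3k6 (r = 0.837, 0.708 without WT replicates 1 and 4) was closest. Zbtb16 had 1, Mertk (r = 0.928, 0.728 without WT replicates 1 and 5), and Hsd11b1 had 2, Anxa1 (r = 0.888) and Fmo2 (r = 0.870). Nr3c1 had 0.

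The 34 further targets were tested between the same groups. Between KO and WT edgeR called 0 of 34, with 4 higher and 2 lower at an unadjusted p under 0.05 (17% of all genes) and a median log2 fold change of 0.08 (-0.01 without WT replicate 5). Sult1a1, a sulfotransferase, had the smallest p: 47.2, 50.4, 43.4, 52.8 and 47.5 CPM in KO replicates 1 to 5 and 53.2, 65.5, 56.0, 75.7 and 65.1 CPM in WT replicates 1 to 5. Every KO mouse lay below every WT mouse, and the difference was -0.40 on the log2 scale (SE 0.09; adjusted p by edgeR 0.1209). It was the 1 target that the DESeq2 Wald test called (1.92% of all genes), and limma-voom called 0. Tnfaip3, which restrains NF-kappa-B, was next with 0.24 (unadjusted edgeR p 0.0248, adjusted p 0.2348). Between the sexes edgeR called 1 target higher in males and 1 lower, where 0.583% of all genes were called. Bcl6, a transcriptional repressor, was the higher (0.52, SE 0.10, edgeR adjusted p 0.0495) and Lcn2, an iron-sequestering protein, the lower (-0.44, SE 0.08, adjusted p 0.0319). The count of targets called between the sexes ran from 0 (without KO replicate 1, WT replicate 2 or WT replicate 5) to 4 (without WT replicate 4), and without KO replicate 5 it was 1, Pdk4. Leaving out each of the 10 mice kept the call of Bcl6 in 3 fits and of Lcn2 in 5, and without KO replicate 5 they gave 0.52 and -0.43 with edgeR adjusted p of 0.0924 and 0.0598. Limma-voom did not call Bcl6, and edgeR did not call Lcn2 with the length balance as a covariate; over all alternatives the adjusted p ran from 0.00042 to 0.2521 for Bcl6 and from 0.00028 to 0.1605 for Lcn2.

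Of 17 genes of the receptor machinery, edgeR called 5 higher in males: Hsp90aa1, Hsp90ab1, Stip1, Fkbp4 and Ptges3. Of all genes 0.449% were called higher in males. EdgeR called 0 of the 17 lower, and the other 12 did not pass, among them the chaperone gene Hspa8 (0.92, edgeR adjusted p 0.0534). The list's median log2 fold change was 0.14 (all genes -0.01). Hsp90aa1, the inducible HSP90, measured 757, 806 and 560 CPM in the males and 319 to 461 CPM (median 388) in the 7 females, which did not overlap (0.92, SE 0.11, edgeR adjusted p 0.0071). Hsp90ab1, its constitutive partner, gave 0.84 (SE 0.10, edgeR adjusted p 0.0058), and Stip1, which passes clients from HSP70 to HSP90, 0.90 (SE 0.11, adjusted p 0.0086). Fkbp4, the co-chaperone that competes with FKBP5, gave 0.62 (SE 0.11, edgeR adjusted p 0.0262) and Ptges3, or p23, 0.40 (SE 0.08, adjusted p 0.0305). With the male KO replicate 1 left out 0 of these and 0 of all genes passed, without KO replicate 2 or WT replicate 2 the count was 3, and without KO replicate 5 it was 5. Leaving out each of the 10 mice kept the call of Hsp90aa1, Hsp90ab1 and Stip1 in 9 fits, of Fkbp4 in 6 and of Ptges3 in 4. Limma-voom did not call Ptges3 (adjusted p 0.0562), and over all alternatives the adjusted p of Ptges3 ran from 0.00042 to 0.2762. Hsp90aa1 in KO replicate 5 was 340 CPM, within the range of the other females. Its Pdk4 level of 35.2 CPM, however, lay above every other female (14.9 to 25.2) and just under the lowest male (36.1). The sex of KO replicate 5 was not tested with these genes.

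Between KO and WT edgeR called 0 of the 17, with 5 higher at an unadjusted p under 0.05 (17% of all genes) and a median of 0.14. Nr3c2, the mineralocorticoid receptor, which also binds corticosterone, measured 25.5, 23.4, 23.2, 20.4 and 21 CPM in KO replicates 1 to 5 and 18.0, 14.7, 16.6, 18.3 and 19.6 CPM in WT replicates 1 to 5. The ranges did not overlap, and the log2 fold change was 0.37 (SE 0.09, edgeR adjusted p 0.1195). Ncoa3, a receptor coactivator, had the next smallest p (0.19, edgeR adjusted p 0.1455). These were the 2 that the DESeq2 Wald test called (1.92% of all genes), and limma-voom called 0. With the length balance as a covariate the list's median was 0.07.

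On the metal response list 5 of 7 genes were tested, and edgeR and limma-voom called 0 in either comparison. Slc39a14, a zinc importer, had the smallest p between KO and WT (0.23, unadjusted edgeR p 0.0119, adjusted p 0.1956), followed by Slc39a10 (0.15, unadjusted edgeR p 0.0368). Gclc, which makes glutathione's precursor, had the smallest between the sexes (0.34, edgeR adjusted p 0.0743) and was called there by DESeq2 (2.42% of all genes). Mtf1, the metal sensor itself, was next (0.16, unadjusted edgeR p 0.0366). At an unadjusted p under 0.05 there were 2 of 5 in each comparison, all higher, where 17% (KO against WT) and 15.1% (sex) of all genes stood. Without KO replicate 5 the sex values were 0.34 for Gclc and 0.17 for Mtf1.

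The 14 clock genes gave 0 calls by edgeR, limma-voom or DESeq2 in either comparison. Between KO and WT 1 was higher (Clock, 0.28, unadjusted edgeR p 0.0151) and 1 lower (Dbp, an output gene of the clock, -0.47, unadjusted p 0.0299), and the median was -0.04. Between the sexes Dbp gave -0.72 (unadjusted edgeR p 0.0068, adjusted p 0.1568) and Clock 0.27 (unadjusted p 0.0287), 2 genes were higher and 3 lower at an unadjusted p under 0.05 (15.1% of all genes), and Arntl passed without WT replicate 5. Without KO replicate 5 the values were -0.71 for Dbp and 0.27 for Clock.

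The 8 immediate early genes all had estimates above 0 between KO and WT, with a median log2 fold change of 0.61 (0.46 without WT replicate 5). EdgeR and limma-voom called 0, 5 had an unadjusted p under 0.05 (17% of all genes), and DESeq2 called 3 (Nr4a1, Atf3 and Fosb; 1.92% of all genes). Nr4a1, an orphan nuclear receptor, measured 40.6, 83.0, 89.8, 65.1 and 67.7 CPM in KO replicates 1 to 5 and 41.8, 29.7, 27.4, 35.4 and 27.2 CPM in WT replicates 1 to 5. KO replicate 1, the male, overlapped the WT range and the 4 KO females lay above it (0.97, SE 0.16, edgeR adjusted p 0.0911). Atf3, a stress-induced factor, gave 0.51 (SE 0.12, edgeR adjusted p 0.1209). Between the sexes Nr4a1 gave -0.53 (unadjusted edgeR p 0.0165, adjusted p 0.2230), and -0.55 without KO replicate 5. DESeq2 called it (2.42% of all genes), and edgeR and limma-voom called 0 of the 8.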

How the data were processed

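RNA was measured in whole lung of 10 mice. Per the labels' protocols the libraries were KAPA stranded mRNA libraries read on an Illumina HiSeq as single reads of 50 bases. The submitters' processing notes name FastQC, MultiQC, STAR 2.6.0 and Salmon 0.9.1 and the builds mm10 and GRCm38. The authors deposited estimated counts per gene, not scaled between samples. Values above 0 were not whole (tolerance 0.01) in 30.1% of cases.

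Counts were rounded, and symbols came from GENCODE M21 by identifier (47281 of 47333 matched; the other 52 held 0.0067% of counts and stayed out of named results). CPM used TMM-scaled totals. EdgeR 4.0.16 (R 4.3.3; quasi-likelihood, robust, genotype and sex terms, filterByExpr with a minimum count of 10 and total of 15) tested 18024 genes, with Benjamini-Hochberg adjustment over them. DESeq2 1.42.0, limma 3.58.1 and other settings were alternatives. The fit was tested on simulated data. Correlations used log2 CPM (prior count 2) and 100000 permutations, or all orders for 9 or 8 mice. Promoters are RefSeq windows (GRCm38.p6), and transcript lengths are the longest GENCODE principal transcript. Floors cover counting error only.

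The genes and lists were chosen with earlier results of these data known. The genes named besides the 8 were Bpifb1, the 3 most correlated genes of each, and from each list the genes called or otherwise up to 2 with the smallest p; others are said to be chosen after seeing values or stand for a count. The labels do not say that the mice came from separate litters. No fit imputed or dropped a mouse unless stated.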

Additional observations from a re-analysis of the deposited data

How the results depend on the processing

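Under each of 19 alternatives for KO against WT and 18 for sex, 0 of the 8 genes passed, and the sign of the KO estimate was kept under all of them for Fkbp5, Tsc22d3, Zbtb16, Hsd11b1, Mt1 and Mt2. The count over all genes moved more. Between KO and WT edgeR's 4 became 346 by the DESeq2 Wald test, 2 by limma-voom, 50 without a filter on low counts, 2 with the length balance as a covariate, and 2 to 18 as each mouse was left out (18 without WT replicate 3; 2 without KO replicate 2, 4 or 5 or WT replicate 1). Between the sexes 105 became 436 by DESeq2, 197 without a filter, 41 without the genotype covariate, 206 with the length balance, and 0 to 195 as each mouse was left out (0 without KO replicate 1, 46 without KO replicate 2, 43 without WT replicate 2, 195 without WT replicate 4). Pairs past adjustment were 1 to 2 as each mouse was left out, 2 without WT replicate 2.

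The KO estimate of Sgk1 turned sign in females alone (0.02), without the sex covariate (0.01) and as mice were left out (-0.10 to 0.05), and that of Nr3c1 with the length balance as a covariate (-0.01), an alternative chosen after seeing the data. The sex estimate of Nr3c1 turned without the genotype covariate (-0.01), with the length balance (-0.04) and as mice were left out (-0.04 to 0.09), and that of Hsd11b1 as mice were left out (-0.05 to 0.14). The cause was not tested. No paired analysis was possible because the labels give no replicate numbers that groups share. With 3 males, of which 1 is KO, no interaction of sex and genotype was fitted.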
